A study of Homo sapiens with 6 samples.

Results

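The genes described here move calcium ions across the plasma membrane and the membrane of the endoplasmic reticulum (ER). They were chosen by name as calcium pumps, inositol trisphosphate receptors and STIM genes, 10 in all, and 9 of the 10 had a row among the 13885 genes of the authors' deposited table: ATP2B1, ATP2B3, ATP2B4, ATP2A2, ATP2A3, ITPR1, ITPR2, STIM1 and STIM2. ITPR3 was not analysed here. The 6 RNA samples came from BE(2)-C, a line of human neuroblastoma cells labelled wild type. The 3 siPCIF1 samples had received an siRNA against PCIF1 for 24 h, and the 3 siScramble samples a scrambled siRNA for the same time. For the next 4 days all 6 samples grew in all-trans retinoic acid (ATRA) at 10 µM, which drives these cells towards a neuronal form. PCIF1 is the enzyme that methylates an adenosine at the first position of an mRNA, beside the cap. Each group rests on 1 cell line and, per the labels, 1 siRNA product, and the labels do not tell whether the samples of a group were separate cultures; p-values then cover only the spread among these samples.

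As background, a cell holds calcium low in its cytosol and high in the ER. Pumps of the ATP2B family push calcium out through the plasma membrane, and pumps of the ATP2A family return it to the ER. A hormone or transmitter that activates phospholipase C makes inositol trisphosphate, which opens the ITPR channels of the ER. STIM proteins sense the loss of ER calcium and open ORAI channels in the plasma membrane, and neurons use the same set to shape calcium signals in axons and synapses.

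The deposited table gives for each gene a mean normalised count over all samples, a log2 fold change with its standard error (SE) and a DESeq2 adjusted p, and no values per library were analysed here. Its SEs ran from 0.12 to 0.30 with a median of 0.18, and the depth of each library is unknown. The header does not state the direction of the fold changes. It was set as siPCIF1 over siScramble from PCIF1 itself, at -0.82 (SE 0.19, DESeq2 adjusted p of 0.000167) per the authors' deposited table, so that sign is no check of the siRNA. If the order of the groups in the table's name gave the direction, every sign below would turn, "rose" and "fell" would change places, and each level or share given for one group would belong to the other; the absolute distances between genes and the adjusted p would stay. All 12 neuroblastoma markers looked for had a row in the authors' deposited table, at mean normalised counts of 73.2 to 8104. Of 13 markers of glia, fibroblasts, blood, endothelium and epithelium 7 had a row, at 12.2 to 150. In these bulk samples, fewer cells of a type and less RNA per cell cannot be told apart.

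Among the 9 genes, ATP2B4 and ITPR2 rose and ATP2A2 and ATP2A3 fell, and the other 5 did not pass. By DESeq2 the authors' deposited table called 16.3% of all genes higher and 17.7% lower at an adjusted p of 0.05, so 2 of 9 in each direction is close to the background. The median log2 fold change was 0.09 over the 9 genes and 0.0059 over all genes of the authors' deposited table.

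**Figure D1:**
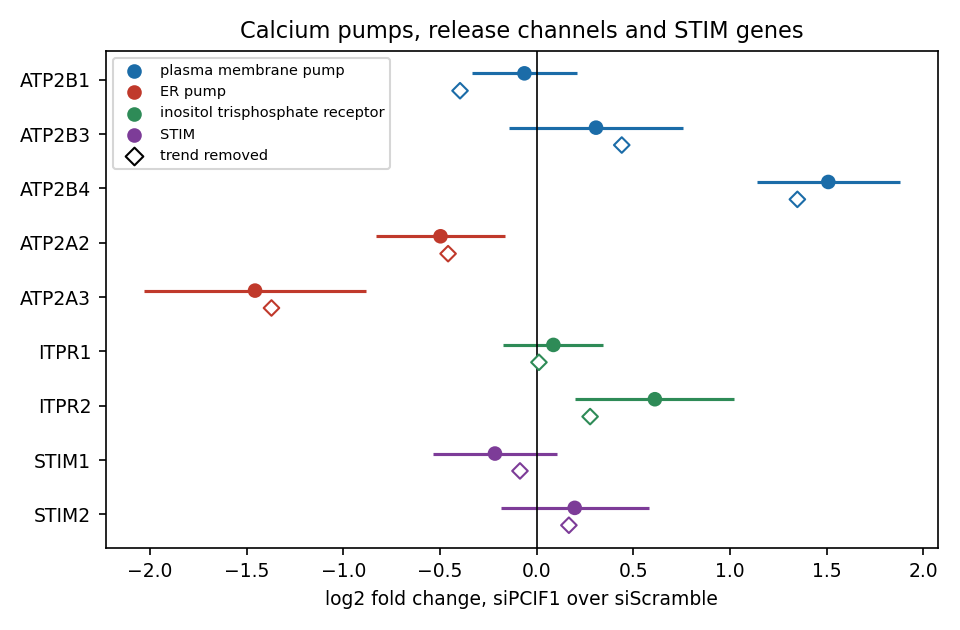
Log2 fold change of each gene, siPCIF1 over siScramble, from the authors' deposited table (circles, with bars for the 95% interval from the SE), and after removal of the trend with length, GC content and expression (open diamonds). ATP2B4 lies at 1.51 and ATP2A3 at -1.46, while the bars of ATP2B1, ATP2B3, ITPR1, STIM1 and STIM2 cross 0.

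ATP2B4 encodes a plasma membrane calcium pump that is activated by calmodulin. Its log2 fold change was 1.51 (SE 0.19) per the authors' deposited table (DESeq2 adjusted p = 1.87e-13). From the authors' deposited table this is 285% of the siScramble level, and the 95% interval runs from 220 to 368%. Only 0.331% of all genes in that table had a fold change as high. The mean normalised count of ATP2B4 over all samples was 137 in the authors' deposited table, which with its fold change corresponds to about 71.1 in siScramble and 202 in siPCIF1. ATP2B4 (ENSG00000058668.14) lies on chromosome 1 from 203626561 to 203744081 in GRCh38, on the forward strand. The annotated small nucleolar RNA SNORA77 lies within it on the same strand.

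Neither of the other 2 plasma membrane pumps passed. ATP2B1, the most widely expressed pump of the family, was at -0.06 (SE 0.14, DESeq2 adjusted p of 0.762) per the authors' deposited table, with a mean normalised count of 676. Its 95% interval was 79.4 to 116% of the siScramble level from the authors' deposited table. ATP2B1 (chromosome 12, 89588049 to 89709300, reverse strand) has a GC content of 36.8% in its main transcript, and genes low in GC tended to be higher: the median log2 fold change from the authors' deposited table was 0.33 in the 20% of genes with the lowest GC content and -0.24 in the 20% with the highest. Once the common trend of fold change with length, GC content and expression was taken out of the values in the authors' deposited table, ATP2B1 was at -0.40 and passed as lower, with an adjusted p of 0.0214 from the DESeq2 values. ATP2B1-AS1, an antisense transcript that overlaps the 5′ end of ATP2B1, fell by 0.93 (SE 0.26, DESeq2 adjusted p of 0.00176) per the authors' deposited table, at a mean of 32.8. The libraries keep strand, but no source used here tells whether the counting used it.

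ATP2B3, a pump found mainly in neurons, was at 0.31 (SE 0.23, DESeq2 adjusted p of 0.315) per the authors' deposited table, at a mean normalised count of 91.4. ATP2B2, the fourth gene of the family and not among the 10 named, was at 0.59 (SE 0.27, DESeq2 adjusted p of 0.0742) per the authors' deposited table, at a mean of 29.6. ATP2B4 lay above ATP2B1 by 1.57 on the log2 scale (95% interval 1.11 to 2.03) and above ATP2B3 by 1.20 (0.62 to 1.79), from the authors' deposited table and with the errors of the genes taken as independent. ATP2B3 and ATP2B1 lay 0.37 apart, with an interval of -0.16 to 0.90 that holds 0, in the authors' deposited table. With the trend removed that distance was 0.84 (0.31 to 1.36), from the authors' deposited table.

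ATP2B4 was the smaller part of the plasma membrane pump transcripts beside ATP2B1 in both groups. Per kilobase of main transcript, its estimated level went from 7.93 normalised counts in siScramble to 22.6 in siPCIF1, against 101.9 and 97.6 for ATP2B1, from the mean and fold change in the authors' deposited table. The share of ATP2B4 in the summed level of the 4 genes was 6.01% in siScramble and 15.2% in siPCIF1, and that of ATP2B1 was 77.3% and 65.9%. These shares, like all values per group, swap between the groups if the direction is turned. They carry no error, since the authors' deposited table gives no values per library.

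**Figure D2:**
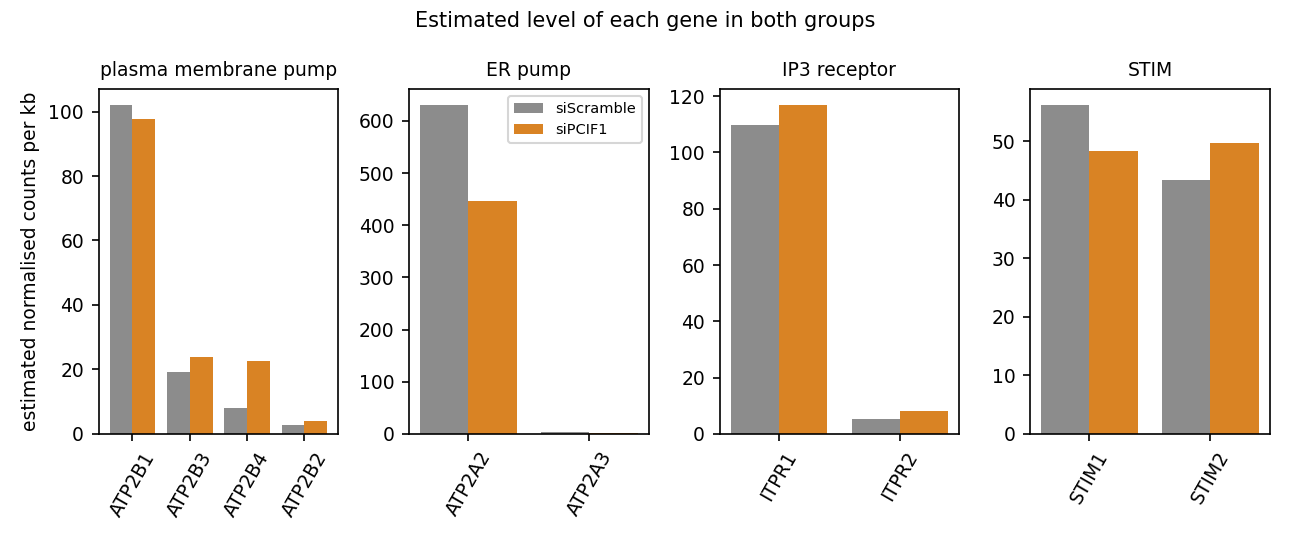
Estimated level of each gene in siScramble (grey) and siPCIF1 (orange), in normalised counts per kilobase of main transcript, computed from the mean and fold change in the authors' deposited table; each panel has its own axis from 0, and no error can be given. ATP2B4 goes from 7.93 to 22.6 beside an ATP2B1 of 101.9 and 97.6, and ATP2A2 from 630 to 446.

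ATP2A2 encodes SERCA2, the pump that fills the ER of most cells with calcium. It fell by 0.50 (SE 0.17) in log2 terms per the authors' deposited table (DESeq2 adjusted p = 0.0147). From the authors' deposited table this is 70.9% of the siScramble level, and the 95% interval runs from 56.2 to 89.4%. With 538 normalised counts per kilobase over all samples ATP2A2 had the highest level of the 9 genes, above 91.7% of 11790 protein-coding genes in the authors' deposited table. It lies on chromosome 12 from 110280756 to 110351093 (ENSG00000174437.16, forward strand). Its call passed at an adjusted p of 0.05 and not at 0.01 from the DESeq2 values. In a test against an absolute log2 change of 0.3 it did not pass, at an adjusted p of 0.917 from the DESeq2 values.

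ATP2A3 encodes SERCA3, a second ER pump best known from blood and epithelial cells. It fell by 1.46 (SE 0.29) in log2 terms per the authors' deposited table (DESeq2 adjusted p = 1.99e-05). That is 36.5% of the siScramble level (95% interval 24.5 to 54.3%), at a mean normalised count of 13.7, the lowest of the 9 genes in the authors' deposited table. Its level of 2.92 normalised counts per kilobase was matched or undercut by 1.79% of protein-coding genes in the authors' deposited table. The SE of ATP2A3 lies close to the highest SE of the table, 0.295, a ceiling of the kind that fold changes shrunken towards 0 have. If they were shrunken that way, its unshrunken fold change was estimated from the authors' deposited table as -2.66, or 15.8% of the siScramble level, a loose estimate so close to the ceiling. EPCAM and KRT18, the markers of epithelium with a row, had mean counts of 13.9 and 12.2 in the authors' deposited table. EPCAM was at -0.38 (SE 0.29, DESeq2 adjusted p of 0.331) and KRT18 at -0.40 (SE 0.29, DESeq2 adjusted p of 0.303) there. Neither passed, though both had the sign of ATP2A3. Their part in the value of ATP2A3 was not tested.

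ATP2A2 and ATP2A3 both fell, and ATP2A3 lay 0.96 further down (95% interval 0.29 to 1.63) per the authors' deposited table. Since ATP2A3 made up 0.676% of the summed level per kilobase of the pair in siScramble and 0.349% in siPCIF1, the summed ER pump level estimated from the authors' deposited table was nearly all ATP2A2 in both groups. Among the named pumps, 1 of 3 of the plasma membrane family rose and 2 of 2 of the ER family fell. DESeq2 called 16.3% of all genes higher and 17.7% lower in the authors' deposited table. The difference between the families was not tested.

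The ATP2A2 promoter is shown because ATP2A2 fell together with calcium-binding proteins of the ER lumen, described below, many of which are known targets of the ER stress response. The ER stress response element is a stretch of DNA bound by the factors NF-Y and ATF6, with the letters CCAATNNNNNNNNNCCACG on either strand. RefSeq (GRCh38.p14) lists 2 starts for ATP2A2. The 250 bases upstream of the downstream start, chr12:110280997-110281246 on the forward strand, hold CCAAT, 9 bases and CCACA beginning 63 bases before the start. The 250 bases upstream of the other start hold no CCAAT. The match was noticed after the values were seen. In the sequence of the downstream start below, capitals mark CCAAT and the last 5 letters of the match.
ATP2A2: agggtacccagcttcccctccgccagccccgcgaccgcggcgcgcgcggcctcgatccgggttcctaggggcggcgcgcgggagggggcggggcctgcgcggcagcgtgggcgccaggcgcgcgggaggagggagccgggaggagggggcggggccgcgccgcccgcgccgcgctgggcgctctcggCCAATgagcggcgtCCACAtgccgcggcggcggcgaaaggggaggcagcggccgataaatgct

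The stretch in ATP2A2 departs from the full element at 1 position, G19A, counted from 1 at the 5′ end of the element. The full element was found in 27 of 34796 RefSeq promoter windows of 300 bases (0.0776%), and the form with any last base in 110 (0.316%). The latter form frees only the position at which ATP2A2 departs, and windows 1 letter off elsewhere were not counted. Both are shares of windows, and a gene can have several. They therefore do not tell how rare a match like that of ATP2A2 is. Among the 7 genes of the 9 with promoter entries (all but ATP2A3 and ITPR2), none held the full element and ATP2A2 held the form with any last base. Among the 14 measured luminal calcium-binding genes with entries, 5 held the full element. Many luminal genes are known targets of the response, and the list was chosen with earlier results known, so this count is no test. Of those 5 genes, HSP90B1 held it at 194 and at 89 bases before a start and is not printed. The 19-base stretches of ATP2A2 and the other 4 are set side by side below, written in the direction of the element, with its fixed letters in capitals.
ATP2A2: CCAATgagcggcgtCCACA
HSPA5: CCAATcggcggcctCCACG
CRELD2: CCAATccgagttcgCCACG
CALR: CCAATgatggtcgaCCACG
CANX: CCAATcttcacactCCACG

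The fold changes beside these stretches were uneven. The authors' deposited table put HSPA5 at -1.81, CRELD2 at -2.37 and CALR at -1.80, each below ATP2A2 at -0.50. HSP90B1, whose stretches are not printed, was at -1.05 there. CANX, which holds the full element 189 bases before a start, was at -0.26 and did not pass (DESeq2 adjusted p of 0.107) per the authors' deposited table. A match is a description of letters, and binding was not measured. Whether the ER stress response had a part in the fall of ATP2A2 was not tested. TGACGTG, the core letters of another stress response element, was in 1.96% of all windows and in none of those 7 genes' windows, on either strand.

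ITPR1 and ITPR2 encode channels that release ER calcium when inositol trisphosphate binds. ITPR1, the main form in neurons, was at 0.09 (SE 0.13, DESeq2 adjusted p of 0.651) per the authors' deposited table, with a mean normalised count of 1107. Its 95% interval, 88.8 to 127% of the siScramble level from the authors' deposited table, holds the value of no change. ITPR2 rose by 0.61 (SE 0.21) in log2 terms per the authors' deposited table (DESeq2 adjusted p = 0.0144). That is 153% of the siScramble level (95% interval 115 to 203%) at a mean normalised count of 77.1 in the authors' deposited table.

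The call of ITPR2 did not hold once the joint trend with length, GC content and expression was removed. From the values in the authors' deposited table it was then at 0.28, with an adjusted p of 0.363 from the DESeq2 values. Its main transcript is the longest of the 9, at 11405 bases, with a GC content of 42.1%. ITPR2 lay above ITPR1 by 0.52 (95% interval 0.04 to 1.01) per the authors' deposited table, and by 0.26 (-0.22 to 0.75) with the trend removed. Per kilobase ITPR1 was the main form, with 95.4% of the summed level of the pair in siScramble and 93.5% in siPCIF1, estimated from the authors' deposited table. ITPR1 (ENSG00000150995.18) lies on chromosome 3 from 4493345 to 4847840, and ITPR2 (ENSG00000123104.11) on chromosome 12 from 26336515 to 26833198.

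STIM1 and STIM2, the ER calcium sensors, did not pass in either direction. STIM1 was at -0.22 (SE 0.16, DESeq2 adjusted p of 0.321) and STIM2 at 0.20 (SE 0.20, DESeq2 adjusted p of 0.467) per the authors' deposited table. Their 95% intervals were 69.0 to 108% and 87.9 to 150% of the siScramble level from the authors' deposited table. STIM2 lay above STIM1 by 0.41, with an interval of -0.09 to 0.91 that holds 0. Their levels per kilobase were 52.2 normalised counts for STIM1 and 46.5 for STIM2 over all samples in the authors' deposited table.

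Ordered by level per kilobase in the authors' deposited table, ATP2A2 at 538 stood first, followed by ITPR1 at 113, ATP2B1 at 99.8, STIM1 at 52.2 and STIM2 at 46.5. ATP2B3 at 21.6, ATP2B4 at 15.2, ITPR2 at 6.76 and ATP2A3 at 2.92 normalised counts per kilobase came last. Whether neighbours in this order differ beyond their spread cannot be said, because that table gives no error for the mean. The genes with the largest fold changes, ATP2B4 and ATP2A3, were both in the lower part of that order. Of 6 pairs within a family, 4 lay apart, in that the interval of their difference excluded 0. Every plasma membrane pump pair among them includes ATP2B4, so the pairs are not independent. The share of other gene pairs that lie apart in this way was not computed. Whether 4 of 6 is more than for other genes therefore cannot be said.

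**Figure D3:**
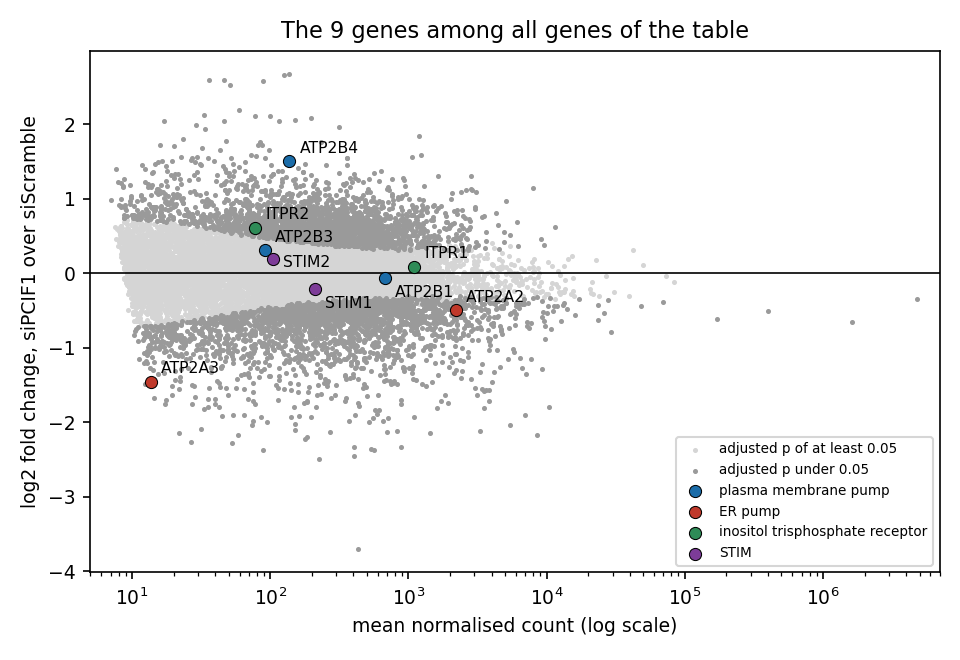
Log2 fold change against mean normalised count (log axis) for all 13885 genes of the authors' deposited table, in dark grey with an adjusted p under 0.05 and in light grey otherwise, with the 9 genes coloured by family. ATP2B4 lies near the upper edge of the cloud and ATP2A3 near its lower edge at a mean of 13.7, while ITPR1, ATP2B1, STIM1 and STIM2 lie within its centre.

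The starts of these genes are shown because PCIF1 acts on mRNAs whose first base is adenosine. RefSeq (GRCh38.p14) lists 12 starts for the 7 genes with entries, and 6 of the 12 begin with A, against 46.1% of 14925 starts of genes in the table. An annotated start is not a measured one, and the cap was not measured here. ATP2A2, which fell, has A at both of its starts, and ATP2B4, which rose, has G. ATP2B3 and STIM2, with A, and ATP2B1 and ITPR1, with G, did not pass. STIM1 has 4 listed starts, with A at 2 and C at 2. One start of each gene is printed below, with 20 bases before it and 9 after it, and the first transcribed base in capitals; for ATP2A2 it is the downstream start, and for ATP2B1 and STIM1 the first listed start in the direction of transcription.
ATP2B4: ggtgagcaagagtctggcccGagttagcta
ATP2B1: ccaggctccccgcggatcgcGtcacgtgac
ATP2B3: ccctccctccctccgcgctcAgagctgcgg
ATP2A2: ggcagcggccgataaatgctAttagagcag
ITPR1: acccggagccgctttaaagtGcagtaacca
STIM1: aggctcaggcgtggctctgtCttctttggc
STIM2: ggttggtgtttggcggcgccAgagcagcgg

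ATP2B4 has no CCAAT in the 250 bases upstream of its start, which hold 55.6% G and C. For ATP2A2 these bases hold 54.8% and no CCAAT at the upstream start, and 80.4% and 1 CCAAT at the downstream start. ATP2B1, ATP2B3 and ITPR1, which did not pass, have no CCAAT there either. The stretch upstream of ATP2B4 is printed because ATP2B4 had the largest increase (chr1:203626582-203626831, forward strand).
ATP2B4: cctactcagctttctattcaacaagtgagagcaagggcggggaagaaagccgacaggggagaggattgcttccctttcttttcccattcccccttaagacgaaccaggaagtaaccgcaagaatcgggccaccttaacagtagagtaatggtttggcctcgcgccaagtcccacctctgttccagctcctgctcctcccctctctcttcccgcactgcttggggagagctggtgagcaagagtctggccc

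The pathway around these genes was followed in 8 lists with 99 measured genes of 135. In the authors' deposited table DESeq2 called 12 of them higher (12.1%) and 26 lower (26.3%), against 16.3% and 17.7% of all genes. Of the 26 decreases, 11 were in the list of calcium-binding proteins of the ER lumen. Without that list 12 of 84 genes rose (14.3%) and 15 fell (17.9%), close to the background. The count of each list below is to be read beside the same shares of all genes, 16.3% higher and 17.7% lower.

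**Figure D4:**
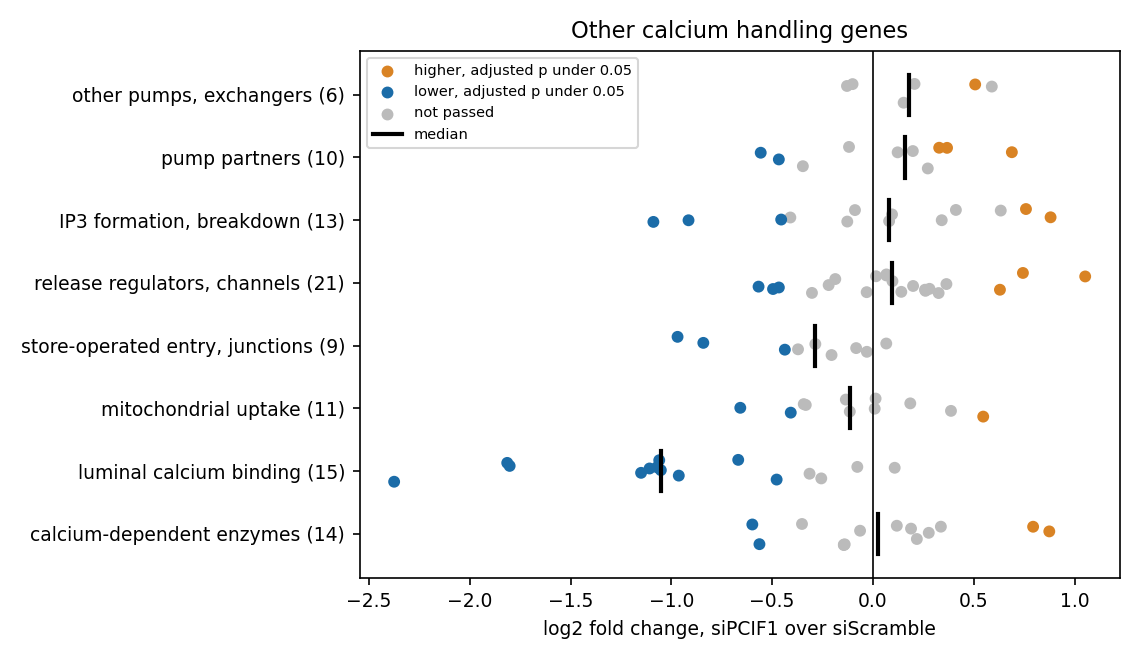
Log2 fold change of each measured gene in 8 lists of calcium handling genes, from the authors' deposited table, with the number measured in parentheses, the median as a black bar and colour for genes with an adjusted p under 0.05. The luminal calcium-binding list has its median at -1.05, and the medians of the other lists lie between -0.29 and 0.18.

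Among 15 measured calcium-binding proteins of the ER and Golgi lumen, 11 fell and 0 rose by DESeq2 in the authors' deposited table, where 0 were higher at an unadjusted p under 0.05 either. Their median was -1.05, against 0.0059 for all genes, in the authors' deposited table. CALR, which encodes calreticulin, the main calcium buffer of the ER, was at -1.80 (SE 0.14) per the authors' deposited table. The chaperones HSPA5 and HSP90B1, which also bind calcium, were at -1.81 (SE 0.20) and -1.05 (SE 0.15) per the authors' deposited table. CRELD2 was at -2.37 (SE 0.15), and the disulfide isomerases P4HB and PDIA3 at -1.15 (SE 0.13) and -0.96 (SE 0.14) per the authors' deposited table. The 4 that did not pass were CANX, SDF4, SELENON and RCN2, at -0.26, -0.31, -0.08 and 0.11 per the authors' deposited table. With the trend removed, 11 still passed as lower and the median was -0.91. Genes of the ER outside the list fell too, such as SEL1L at -1.51, HERPUD1 at -1.57 and SEC61A1 at -1.26, while SEC62 rose, at 0.93. These were picked after their values were seen. Whether the fall is particular to calcium-binding proteins was not tested.

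Of 6 other pumps and exchangers measured, 1 rose and 0 fell by DESeq2 in the authors' deposited table (0 lower at an unadjusted p under 0.05). SLC8A1, a sodium-calcium exchanger of the plasma membrane, was at 0.51 (SE 0.18, DESeq2 adjusted p of 0.019) per the authors' deposited table. With the trend removed its adjusted p was 0.0574 from the DESeq2 values. ATP2C1, the calcium and manganese pump of the Golgi, was at 0.21 (SE 0.14, DESeq2 adjusted p of 0.24) per the authors' deposited table.

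Partners and regulators of the pumps went both ways, with 3 of 10 higher and 2 lower by DESeq2 in the authors' deposited table. C4orf3, a small membrane protein that inhibits SERCA pumps, was at 0.69 (SE 0.15, DESeq2 adjusted p of 8.53e-05) per the authors' deposited table. SRI, which encodes the calcium-binding protein sorcin, was at -0.56 (SE 0.14, DESeq2 adjusted p of 0.000479) there. BSG (basigin), an accessory subunit of plasma membrane pumps, was at -0.47 (SE 0.13) and its relative NPTN (neuroplastin) at 0.20 (SE 0.14, DESeq2 adjusted p of 0.263) per the authors' deposited table. THADA, a partner of SERCA, was at 0.37 (SE 0.15, DESeq2 adjusted p of 0.0469) per the authors' deposited table. With the trend removed BSG and THADA did not pass, with adjusted p of 0.815 and 0.254 from the DESeq2 values.

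Upstream of the ITPR channels, 2 of 13 genes of inositol trisphosphate formation and breakdown rose and 3 fell by DESeq2 in the authors' deposited table. The phospholipases PLCB1 and PLCD4 were at 0.88 (SE 0.15) and 0.76 (SE 0.20), and PLCD1 at -1.09 (SE 0.25), in the authors' deposited table. Both of the decreases other than PLCD1 were enzymes that use up inositol trisphosphate. The kinase gene ITPKC was at -0.91 (SE 0.17) and the phosphatase gene INPP5A at -0.45 (SE 0.17) per the authors' deposited table, while the kinase gene ITPKA was at 0.09 (SE 0.20, DESeq2 adjusted p of 0.755). With the trend removed INPP5A did not pass, at an adjusted p of 0.133 from the DESeq2 values.

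Among 21 regulators of the ITPR channels and other release or leak channels, 3 rose and 3 fell by DESeq2 in the authors' deposited table. Of all genes 16.3% were called higher and 17.7% lower there. RYR2, a ryanodine receptor and thus a release channel of the other family, was at 1.05 (SE 0.18, DESeq2 adjusted p of 8.52e-08) per the authors' deposited table, with a mean normalised count of 159. TPCN1, a channel of endosomes and lysosomes, was at 0.74 (SE 0.21) and BOK, a BCL2 family protein that binds ITPR channels, at 0.63 (SE 0.19) per the authors' deposited table. ERLIN1, part of the complex that removes activated ITPR channels, was at -0.57 (SE 0.18) and its partner ERLIN2 at 0.26 (SE 0.14, DESeq2 adjusted p of 0.125) per the authors' deposited table. ERP44, a luminal thiol protein that inhibits ITPR1, was at -0.50 (SE 0.14) and the channel PKD2 at -0.47 (SE 0.16) per the authors' deposited table.

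Of 9 measured channels and junction proteins of store-operated entry, 3 fell and 0 rose by DESeq2 in the authors' deposited table (0 higher at an unadjusted p under 0.05). ESYT1, a tether between the ER and the plasma membrane, was at -0.97 (SE 0.14, DESeq2 adjusted p of 1.81e-10) per the authors' deposited table. JPH3, a junctophilin of neurons, was at -0.84 (SE 0.24) and the channel ORAI2 at -0.44 (SE 0.14) per the authors' deposited table. ORAI1, the main channel opened by STIM1, was at -0.29 (SE 0.19, DESeq2 adjusted p of 0.237) there, and SARAF, which turns STIM off, at -0.37 (SE 0.16, 0.0593). ORAI2 did not pass with the trend removed, at an adjusted p of 0.622 from the DESeq2 values.

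In mitochondrial calcium uptake 1 of 11 genes rose and 2 fell by DESeq2 in the authors' deposited table. MICU3, a neuronal regulator of the uniporter, was at 0.55 (SE 0.17), MCUR1 at -0.66 (SE 0.17) and LETM1 at -0.41 (SE 0.17) per the authors' deposited table. The channel itself, MCU, was at -0.33 (SE 0.18, DESeq2 adjusted p of 0.14) there. With the trend removed MCU was at -0.45 and passed as lower, with an adjusted p of 0.049 from the DESeq2 values. MICU3 and LETM1 did not pass with the trend removed, at adjusted p of 0.52 and 0.277 from the DESeq2 values.

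Of 14 calcium-dependent kinases, calcineurin and NFAT genes, 2 rose and 2 fell by DESeq2 in the authors' deposited table. The kinase genes CAMK4 and CAMKK2 were at 0.79 (SE 0.16) and 0.87 (SE 0.17) per the authors' deposited table. CAMK2D was at -0.56 (SE 0.16) and CAMKK1 at -0.60 (SE 0.17) there. RCAN1, a calcineurin inhibitor whose transcription calcineurin and NFAT are known to induce, was at -0.14 (SE 0.17, DESeq2 adjusted p of 0.572) per the authors' deposited table.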

How the data were processed

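RNA-seq of 6 samples was deposited as 1 table of the authors' DESeq2 results. Per the submitters' processing notes, the tools were STAR 2.7.10a, cutadapt 3.7, bcl2fastq 2.20, DESeq2, HTSeq and deepTools, with hg38; roles and settings: not given in the sources used here. Per the labels' protocols the libraries were poly(A)-selected and stranded. The authors' mean of normalised counts is a signal that is never negative. Fold changes and SEs are log2 values the authors deposited. The Wald statistic the authors deposited is a score. Each p-value, raw or adjusted, was taken as the authors deposited it, and a Benjamini-Hochberg adjustment over the listed genes gave the same adjusted values.

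Symbols came from identifiers without their version. Of 13885 identifiers 13877 matched GENCODE 29, which gave coordinates and the main transcript (best by APPRIS, basic tag, support level, then length), its length and its GC content. Genes with an adjusted p under 0.05 were counted as changed. Percentages of the siScramble level and 95% intervals came from the fold change and SE, and levels per group from the mean and fold change. The trend was a linear model of the fold change on GC content, log2 length and log2 mean count with their squares, over all genes. Unshrunken values assume a normal prior, whose SD of 0.59 is set by the highest SE. The genes and the 8 lists were chosen with earlier results of these data known. Named were the 9 genes, PCIF1 and up to 6 genes of each list by adjusted p; further genes, such as ATP2B1-AS1, were named after their values were seen. One result among the pump partners is not reported here. Alternatives were another threshold, centring, a minimum mean, a minimum change, a rescaled statistic and removal of the trend. The steps were tested on simulated data. Calculations ran in Python 3.11.15 (pandas 2.3.3, scipy 1.17.1, numpy 2.4.6) and plots in matplotlib 3.10.9.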

Additional observations from a re-analysis of the deposited data

How the results depend on the processing

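No paired analysis was possible because the authors' deposited table has no columns per sample, and for the same reason leaving out single replicates was not run. Of 9 genes, 2 rose and 2 fell by DESeq2 in the authors' deposited table. The counts were 1 and 1 at an adjusted p of 0.01 (10.7% and 12.1% of all genes), with genes of mean 100 or more (19.5% and 22.2%; 3 of the 9 are left out) and against an absolute log2 change of 0.3 (3.87% and 5.21%); they were 0 and 0 with the Wald statistics divided by their robust SD of 2.44 (0.151% and 0.821%), where ATP2B4 had an adjusted p of 0.0872, and 1 and 3 with the trend removed (12.5% and 12.9%). Centring on the median gave 2 and 2 (15.9% and 17.9%). Of the 99 other genes 12 rose and 26 fell; 4 and 12 did against an absolute change of 0.3 and 0 and 4 with the rescaled statistic, and the other alternatives stayed within 1.5 times. The number of pairs apart was 4 of 6 in each setting, with no share of other gene pairs computed beside it. With the trend removed, however, ATP2B3 and ATP2B1 lay apart and ITPR2 and ITPR1 did not. No value of the 9 genes, ATP2B2 or PCIF1 that passed changed its sign under these alternatives. PCIF1 did not pass with the rescaled statistic or against a change of 0.3, at adjusted p of 0.744 and 0.0658. The causes were not tested. Depth per library is unknown, and ATP2A3, at a mean of 13.7, has the widest SE of the 9.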
